A study of Mus musculus with 12 samples.

Results

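Thrombospondins are secreted, calcium-binding glycoproteins of the extracellular matrix that act between cells and collagen, and 5 genes encode the family in the mouse: Thbs1, Thbs2, Thbs3, Thbs4 and Comp (cartilage oligomeric matrix protein). Their expression was compared between the border zone of an infarct and the matching site of sham-operated hearts. The members were the probesets to which the platform annotation gives exactly 1 of these gene symbols, and all 5 genes were measured, out of 20352 genes in all. They were covered by 112 of the 241576 probesets in the table, with 24 for Thbs1, 23 for Thbs2, 24 for Thbs3, 22 for Thbs4 and 19 for Comp, and no probeset named a member among several genes. The infarcted group held 6 hearts and the sham group 6 hearts, all from C57BL/6J mice of 12 weeks, with tissue taken 2 weeks after surgery. The labels give neither the way the infarct was made nor the sex of the animals. They number the replicates without saying that each came from its own animal. A heart in this text is therefore a sample with its own array, and n counts such samples. The p-values rest on the spread between these samples. Each RNA was hybridised to its own one-colour array, and the comparison asks which genes changed in the injured mouse heart.

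The family falls into 2 groups by structure. Thrombospondins 1 and 2 form trimers and carry repeats that bind CD36 and restrain vessel growth, and thrombospondin 1 can also release TGF-beta from its latent complex. Thrombospondins 3 and 4 and Comp form pentamers without those repeats. Comp and thrombospondin 4 are best known from cartilage and tendon, where they bind collagens, and thrombospondin 4 is induced in stressed mouse hearts, where it acts inside the cell on the endoplasmic reticulum stress factor Atf6. Mice without Thbs2 have a fragile collagen matrix. For Thbs3 less is known.

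The array medians lay between 7.045 and 7.058 on the log2 scale in infarcted hearts and between 6.997 and 7.026 in sham hearts, and no pair of the 66 pairs of arrays held identical values. The defining genes of heart muscle were bright, with a mean over 9 cardiomyocyte markers between 13.18 and 13.30 in infarcted hearts and between 13.30 and 13.36 in sham hearts. Infarcted replicates 4 and 5 carried the highest signal of atrial markers (8.60 and 8.01, against 6.98 to 7.78 in the other infarcted hearts and at most 7.07 in sham hearts), and infarcted replicate 5 that of adipocyte markers (8.03, against 6.11 to 6.69 in the other infarcted hearts and 6.17 to 6.39 in sham hearts). Without these 2 hearts the members rose by 3.76 (Comp), 3.50 (Thbs4), 2.79 (Thbs1), 1.34 (Thbs3) and 1.16 (Thbs2) on the log2 scale, each still past the threshold.

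All 5 members were higher in the infarcted border zone, and in each of them every infarcted heart lay above every sham heart. Comp and Thbs4 rose more than 10-fold, Thbs1 about 7-fold, and Thbs3 and Thbs2 a little over 2-fold. Among all 20352 genes 10.1% were called higher (limma, Benjamini-Hochberg adjusted p under 0.05), and in 5.97% every infarcted array lay above every sham array. A call together with a rise of at least 1 on the log2 scale, which all 5 members had, was found for 1.28% of genes. The median change of the 5 members was 2.84 on the log2 scale, beside -0.039 over all genes. Where background remains in these log2 signals, a fold change understates that of a gene with dim sham signal. In a piece of tissue more cells of a type and more RNA per cell cannot be told apart.

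**Figure D1:**
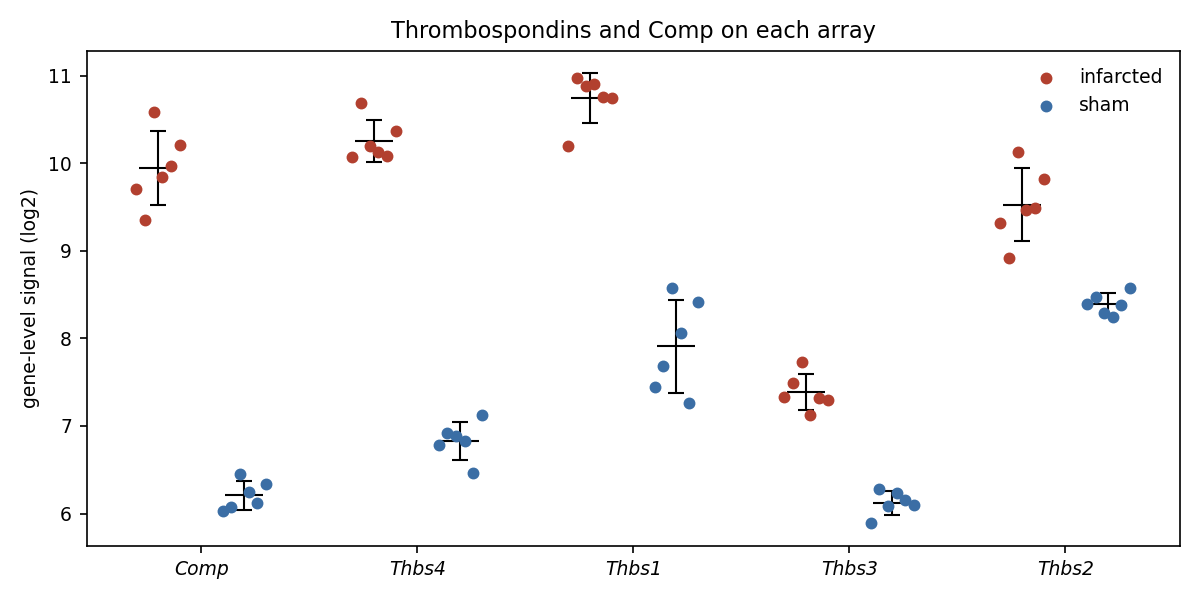
Gene-level log2 signal (vertical axis) of Comp, Thbs4, Thbs1, Thbs3 and Thbs2 on each of the 6 infarcted (red, left) and 6 sham (blue, right) arrays, with bars for the mean and SD. The groups overlap in none of the 5 genes, and the gap between them runs from 0.34 (Thbs2) to 2.95 (Thbs4).

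Among the pentameric members, Comp showed the largest rise. Its log2 signal ran from 9.35 through a median of 9.90 to 10.59 in infarcted hearts, and from 6.03 through 6.19 to 6.45 in sham hearts. Every infarcted heart was at least 2.90 above the brightest sham heart, and infarcted replicate 3 was the highest. The means were 9.94 ± 0.43 in infarcted and 6.21 ± 0.16 in sham hearts (SD, n = 6 each), a 13.3-fold rise (95% interval 10.4 to 17.0, limma adjusted p = 2.78e-09) that was the 4th largest of all genes.

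Thbs4 was nearly as strongly raised, with less spread between infarcted hearts than Comp and more between sham hearts. It ran from 10.07 through a median of 10.17 to 10.69 in infarcted hearts and from 6.46 through 6.86 to 7.12 in sham hearts. Infarcted replicate 2 was the highest for Thbs4, whereas it was the lowest of the infarcted hearts for Comp. The means of 10.26 ± 0.24 in infarcted and 6.83 ± 0.22 in sham hearts (SD, n = 6 each) differed 10.8-fold (95% interval 8.97 to 12.9, limma adjusted p = 6.64e-10), the 6th largest rise.

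Thbs3, the remaining pentameric member, rose far less. Its signal ran from 7.13 through a median of 7.32 to 7.73 in infarcted hearts, against 5.89 through 6.13 to 6.28 in sham hearts. The groups were separated by 0.85, with infarcted replicate 3 again on top. The means were 7.38 ± 0.21 in infarcted and 6.12 ± 0.14 in sham hearts (SD, n = 6 each), a 2.40-fold rise (95% interval 2.07 to 2.77, limma adjusted p = 8.26e-07), which ranked 150th.

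Of the trimeric members, Thbs1 rose strongly, and its sham hearts were the more variable group. It ran from 10.20 through a median of 10.82 to 10.98 in infarcted hearts and from 7.26 through 7.88 to 8.58 in sham hearts. The sham hearts covered a range of 1.32 and the infarcted hearts 0.77, and infarcted replicate 1 stood below the other 5. The means of 10.75 ± 0.28 in infarcted and 7.91 ± 0.53 in sham hearts (SD, n = 6 each) differed 7.14-fold (95% interval 5.21 to 9.78, limma adjusted p = 5.12e-07), the 13th largest rise.

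Thbs2 showed the smallest rise and the narrowest gap. Its signal ran from 8.92 through a median of 9.48 to 10.13 in infarcted hearts, against 8.24 through 8.38 to 8.58 in sham hearts. Here the spread was on the infarcted side, with a range of 1.21 against 0.34 in sham hearts. The means of 9.53 ± 0.42 in infarcted and 8.39 ± 0.12 in sham hearts (SD, n = 6 each) differed 2.20-fold (95% interval 1.74 to 2.77, limma adjusted p = 0.000156), which ranked 200th.

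The sequence before the transcription start is given for Thbs4, Thbs3 and Thbs2, the 3 members with an entry in the promoter reference used. They were not chosen by the size of their rise. Each window holds the 250 bases before the start in RefSeq's GRCm38.p6 annotation, written 5′ to 3′ on the gene's own strand. The windows are chr13:92794819-92795068 (minus strand) for Thbs4, chr3:89214930-89215179 (plus strand) for Thbs3 and chr17:14694263-14694512 (minus strand) for Thbs2. Capitals mark matches, on either strand, to the AP-1 site TGANTCA, the SMAD box GTCTG, the TEAD site GGAATG, the GC box GGGCGG and the TATA box TATAAA.
Thbs4: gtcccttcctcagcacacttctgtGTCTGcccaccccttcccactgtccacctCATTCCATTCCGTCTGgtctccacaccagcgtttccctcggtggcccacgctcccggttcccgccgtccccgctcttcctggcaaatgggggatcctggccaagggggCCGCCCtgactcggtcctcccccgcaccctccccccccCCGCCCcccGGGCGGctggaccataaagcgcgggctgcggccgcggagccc
Thbs3: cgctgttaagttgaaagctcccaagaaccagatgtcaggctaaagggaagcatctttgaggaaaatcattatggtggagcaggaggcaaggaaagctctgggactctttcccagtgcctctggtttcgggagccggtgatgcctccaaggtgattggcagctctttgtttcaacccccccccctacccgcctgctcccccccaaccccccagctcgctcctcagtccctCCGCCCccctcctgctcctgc
Thbs2: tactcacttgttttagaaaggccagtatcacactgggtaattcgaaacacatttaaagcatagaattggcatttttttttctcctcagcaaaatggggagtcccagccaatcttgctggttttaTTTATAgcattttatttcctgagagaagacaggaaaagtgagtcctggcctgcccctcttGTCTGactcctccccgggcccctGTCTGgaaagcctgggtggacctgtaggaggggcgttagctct

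The 3 promoters differed in base composition and in these motifs. That of Thbs4 was 70.8% G or C, that of Thbs3 58.8% and that of Thbs2 46.8%, beside a median of 52.4% over the 32851 promoters in the table. The Thbs4 window held 3 GC boxes, 2 SMAD boxes and 2 TEAD sites, the TEAD sites overlapping each other and followed at once by a SMAD box. The Thbs2 window held 2 SMAD boxes within 66 bases of the start and a TATA box on the reverse strand 126 bases before it, and the Thbs3 window a single GC box. None of the 3 held an AP-1 site. Over all promoters of this length, 42.2% held a SMAD box, 32.7% a GC box, 12.6% a TEAD site, 12.4% a TATA box and 6.75% an AP-1 site, so a match describes the window and is not evidence of binding. Promoters of Comp and Thbs1 are not shown here.

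The members rose by unequal amounts, and the division did not follow trimers and pentamers. Comp, Thbs4 and Thbs1 each rose by more than Thbs3 and Thbs2. The difference between 2 members was taken on each array and compared between the groups with an exact two-sided permutation test over all splits of the 12 arrays, in 10 pairs with Benjamini-Hochberg adjustment. Comp minus Thbs3 ran from 1.86 to 2.91 in infarcted hearts and from -0.22 to 0.36 in sham hearts, so that Comp rose by 2.48 ± 0.18 (SE) more on the log2 scale. The excess of Comp over Thbs2 was 2.60 ± 0.09, that of Thbs4 over Thbs3 2.17 ± 0.15 and that of Thbs4 over Thbs2 2.29 ± 0.24. Thbs1 exceeded Thbs3 by 1.58 ± 0.25 and Thbs2 by 1.70 ± 0.30. In these 6 pairs the groups did not overlap (exact p = 0.00216, the smallest the design allows, adjusted p = 0.00361, n = 6 per group). The pair tests compare gene values and cover the spread between arrays. They do not cover the unequal changes of the probesets of a gene, which are given below.

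Within each of the 2 sets the differences were smaller. Comp rose by 0.90 ± 0.25 more than Thbs1 (exact p = 0.00866, adjusted p = 0.0124), and Thbs4 by 0.59 ± 0.19 more than Thbs1 (exact p = 0.0152, adjusted p = 0.0189), with overlap of the groups in both. The second call ended without infarcted replicate 1 or 6 (exact permutation test, adjusted p = 0.0514 for each). Comp against Thbs4 differed by 0.31 ± 0.25 (exact p = 0.253, adjusted p = 0.281), but by 0.51 without infarcted replicate 2 (exact permutation test, adjusted p = 0.00812). Thbs3 against Thbs2 differed by 0.13 ± 0.18 (exact p = 0.558, adjusted p = 0.558), and by -0.02 without infarcted replicate 2.

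**Figure D2:**
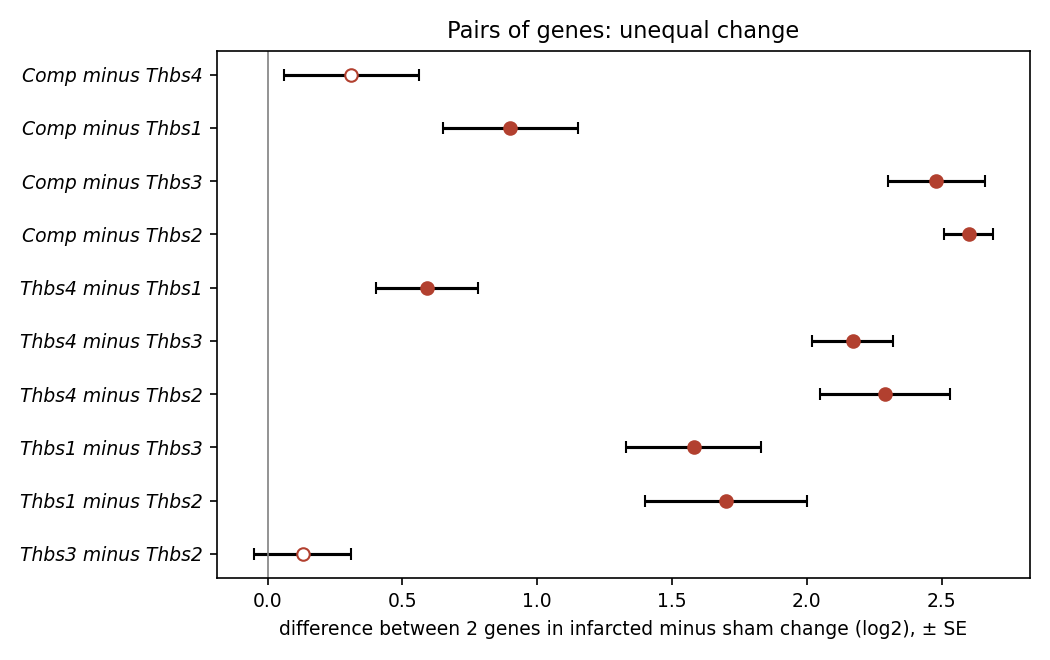
Difference between 2 members in their infarcted minus sham change (horizontal axis, log2, with SE) for the 10 pairs; filled points passed the exact permutation test after adjustment and open points did not. The 6 pairs that set Comp, Thbs4 or Thbs1 against Thbs3 or Thbs2 lie between 1.58 and 2.60, and the other 4 between 0.13 and 0.90.

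Across the 6 infarcted hearts Comp and Thbs2 varied together. In infarcted replicates 1 to 6 Comp stood at 9.71, 9.35, 10.59, 9.84, 9.97 and 10.21, and Thbs2 at 9.32, 8.92, 10.13, 9.47, 9.49 and 9.82. Both were highest in replicate 3, next in replicate 6 and lowest in replicate 2, and Comp minus Thbs2 stayed between 0.37 and 0.47. Pearson's r was 0.995 (exact permutation p = 0.00139, adjusted p = 0.0278 over 20 relations, n = 6) and Spearman's rho was 1.0 (exact p = 0.00278, adjusted p = 0.0556). Without the 2 hearts farthest from the median of Comp, r was 0.98. With the mean over probesets as the gene value, r was 0.98 and did not pass (exact permutation test, adjusted p = 0.0556).

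Set against the sham mean, single infarcted hearts were 8.82-fold to 20.9-fold higher for Comp, 9.44-fold to 14.5-fold for Thbs4 and 4.90-fold to 8.37-fold for Thbs1. For Thbs3 they were 2.01-fold to 3.05-fold higher and for Thbs2 1.44-fold to 3.34-fold.

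The other pairs did not pass. In infarcted hearts the remaining 9 pairs had r between -0.43 and 0.51. Thbs4 was highest in replicate 2, where Comp and Thbs2 were lowest. Its r of -0.43 with Thbs2 (exact permutation p = 0.372, adjusted p = 0.932, n = 6) did not hold otherwise: Spearman's rho was 0.03 (exact p = 1.0) and r was 0.92 without the 2 hearts farthest from the median of Thbs4. In sham hearts Comp and Thbs2 had r = -0.17 (exact permutation p = 0.740, adjusted p = 0.985, n = 6). The highest r there was that of Comp with Thbs1 at 0.92 (exact permutation p = 0.0181, adjusted p = 0.181, n = 6), which did not pass. The mean signal of 9 fibroblast markers in infarcted replicates 1 to 6 was 10.73, 10.74, 11.07, 10.69, 10.86 and 10.88, highest in replicate 3, as for Comp, Thbs2 and Thbs3, and lowest in replicate 4. That of 8 macrophage markers was 7.97, 7.91, 8.35, 8.06, 8.20 and 8.10, highest in replicate 3 and lowest in replicate 2, as for Comp and Thbs2. The part of either list in the relation was not tested.

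**Figure D3:**
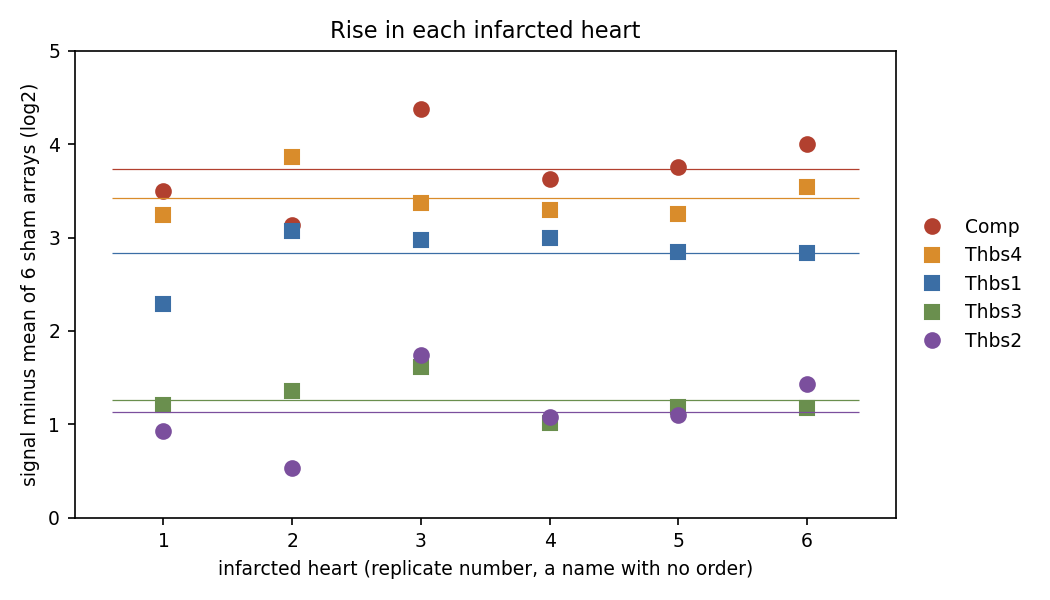
Signal of each member in each infarcted heart minus its mean over the 6 sham arrays (vertical axis, log2); horizontal lines are means over the 6 hearts. Comp (0.995 with Thbs2 by Pearson's r) and Thbs2 move together from heart to heart, with rises of 4.38 and 1.74 in replicate 3 and 3.14 and 0.53 in replicate 2, where Thbs4 has its largest rise (3.86).

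Single probesets gave the same direction as the gene values. Of the 112 probesets 107 were called higher and none lower, and in 100 of them all infarcted arrays lay above all sham arrays. Over all probesets with 1 gene symbol, 6.96% were called higher and 4.88% had no overlap in that direction. All 24 probesets of Thbs1 and all 22 of Thbs4 were called, with 22 of 23 for Thbs2, 21 of 24 for Thbs3 and 18 of 19 for Comp. The 5 that did not pass had positive changes too. The smallest was a Thbs3 probeset at 0.07 (limma adjusted p = 0.867), with 7.62 ± 0.22 in infarcted and 7.55 ± 0.44 in sham hearts (SD, n = 6 each).

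The probesets of a gene did not all rise by the same amount. In Thbs2 they kept close together, from 0.64 to 1.27. In Thbs1 they ran from 1.59 to 3.33 and in Thbs3 from 0.07 to 2.50. In Thbs4 they ran from 0.56 to 5.03, with 7 above 4, and in Comp from 0.57 to 5.44, with 8 above 4. The Thbs4 probeset with the smallest rise was bright in sham hearts and little spread, at 9.51 ± 0.04 in infarcted and 8.94 ± 0.19 in sham hearts (limma adjusted p = 0.00209). The one with the largest rise was dim in sham hearts, at 8.40 ± 0.28 in infarcted and 3.36 ± 0.59 in sham hearts. In Comp the largest rise belonged to a probeset at 10.69 ± 0.42 in infarcted and 5.25 ± 0.79 in sham hearts, and the smallest, which did not pass, to one at 7.34 ± 0.39 in infarcted and 6.77 ± 0.38 in sham hearts (limma adjusted p = 0.10).

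Unequal change within a gene passed for Thbs4, Comp and Thbs3 (limma diffSplice F test, adjusted p = 1.04e-49, 2.62e-32 and 1.39e-07), as it did for 9.30% of the 15004 genes tested. It did not pass for Thbs1 (adjusted p = 0.113, but 0.0298 without sham replicate 3) or Thbs2 (adjusted p = 1.0). The F test assumes that the probesets of a gene have equal spread, which these do not, so its p-values can be too small or too large. An exact permutation test of the arrays, added after seeing the data, does not need that assumption. The exact permutation test gave unadjusted p = 0.00216, the smallest the design allows, for Thbs4, Comp, Thbs3 and Thbs1. For Thbs2 the exact permutation test gave unadjusted p = 0.0931. Only the members were tested in this way, so the share of all genes that would reach the smallest value is not known. Across the probesets of a gene the change fell with the sham signal, with r = -0.72 over the 22 of Thbs4, -0.56 over the 24 of Thbs3 and -0.45 over the 19 of Comp, against -0.13 for Thbs1 and -0.14 for Thbs2. These r are descriptions, since both measures share the sham values and the same arrays. The place of a probeset in its gene was not used here.

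**Figure D4:**
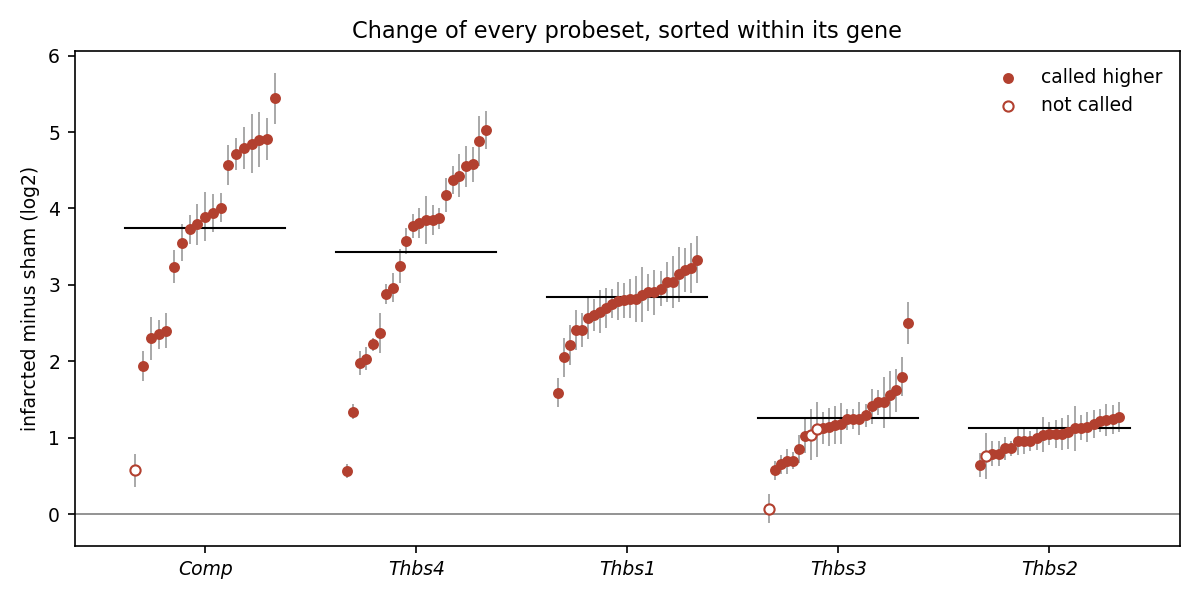
Infarcted minus sham change (vertical axis, log2, with SE) of each of the 112 probesets, sorted within its gene; filled points were called higher, open points were not called, and black lines mark the gene-level change. Thbs4 and Comp span 0.56 to 5.03 and 0.57 to 5.44, whereas Thbs2 spans 0.64 to 1.27.

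For each member the 3 genes whose course over the 12 arrays was most like its own were taken from all genes. Likeness was the root mean square difference between 2 genes after each had its own sham mean taken off, so it reflects the size of the rise and the variation between hearts. Nearest to Comp were the collagen-binding proteoglycan Fmod (0.269), the secreted Wnt-binding protein Sfrp2 (0.319) and the collagen cross-linking enzyme Lox (0.336). Nearest to Thbs4 were Col12a1, a collagen on fibril surfaces (0.236), Lox (0.325) and the protease inhibitor Timp1 (0.334). For Thbs1 they were the matricellular tenascin gene Tnc (0.339), the microfibril protein gene Mfap4 (0.368) and the matricellular periostin gene Postn (0.392). The values of Thbs2 and Thbs3, which rose less, were smaller throughout, and the part of the size of the rise in this was not tested. Thbs2 had Bmp1, a procollagen-processing protease (0.163), Mxra8 (0.167) and Fxyd6 (0.173), and Thbs3 had Anxa2, an annexin (0.117), Lhfpl2 (0.127) and Rcn3, a calcium-binding protein of the endoplasmic reticulum (0.138). Between members the nearest pairs were Thbs2 with Thbs3 (0.295) and Thbs4 with Comp (0.448).

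Surface proteins that bind thrombospondins were partly higher. Of 18 receptors and partners 9 rose and 1 fell, with a median change of 0.32, and 10.2% of all genes were called lower. Lrp1, an endocytic receptor that clears thrombospondins, rose 2.00-fold, to 11.12 ± 0.23 in infarcted against 10.12 ± 0.08 in sham hearts (SD, n = 6 each, limma adjusted p = 6.90e-06). The proteoglycan Sdc1 rose by 0.86, the integrin chain Itgb5 by 0.94 and Itgam, an integrin chain of myeloid cells, by 0.81. Cacna2d1, a calcium channel subunit that binds thrombospondins in neurons, fell by 0.32 (limma adjusted p = 0.0145). The best known receptors of thrombospondin 1 were chosen after their values were seen. Cd36 differed by -0.16 (limma adjusted p = 0.186) and Cd47 by 0.19 (limma adjusted p = 0.111), while the integrin chains Itgav and Itgb3 rose by 0.46 and 0.49. With the mean over probesets both Cd36 and Cd47 passed.

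In the TGF-beta list 10 of 13 measured genes rose and none fell, with a median of 0.69. Ltbp2, a matrix protein of the latent TGF-beta binding family, rose 8.95-fold, to 9.57 ± 0.21 in infarcted against 6.41 ± 0.19 in sham hearts (SD, n = 6 each, limma adjusted p = 6.64e-10). The ligands Tgfb2 and Tgfb3 rose 3.02-fold and 2.78-fold, and Ccn2, a target gene, 4.08-fold. Tgfb1, the ligand that thrombospondin 1 is known to release, differed by 0.29 (limma adjusted p = 0.40) and is named after its value was seen. It passed with the mean over probesets (adjusted p = 0.0108).

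Matrix partners of Comp and thrombospondins rose in 14 of 22 cases and none fell, with a median of 0.42. Col12a1 rose 9.86-fold, Fn1 (fibronectin) 6.13-fold, Col1a1, a chain of the main scar collagen, 5.87-fold and Col14a1, another collagen on fibril surfaces, 4.57-fold. The cartilage collagen gene Col2a1, named after its value was seen, rose by 0.38 (limma adjusted p = 0.0149). The other cartilage collagen genes of this list, Col9a1, Col9a2 and Col9a3, differed by -0.03, -0.12 and -0.10. None of them was called (limma adjusted p = 0.844, 0.319 and 0.488). Col1a1 also stands in the list of fibroblast markers.

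Most proteases that cut Comp or thrombospondins were not called. Of 9 measured genes 3 rose and 1 fell, while 10.1% of all genes were called higher and 10.2% lower. The median change was 0.05, beside -0.039 over all genes. Adamts12, which cuts Comp, rose 2.01-fold, to 7.30 ± 0.23 in infarcted against 6.29 ± 0.08 in sham hearts (SD, n = 6 each, limma adjusted p = 7.79e-06). Adamts7, which also cuts Comp, fell by 0.48 (limma adjusted p = 0.00782), with 7.34 to 7.90 in infarcted and 7.93 to 8.43 in sham hearts and no overlap. Mmp19 rose by 0.91. Adamts4 rose by 0.73 (limma adjusted p = 0.0290). It no longer passed when infarcted replicate 2, 3 or 6 or sham replicate 5 was omitted (adjusted p at most 0.0649).

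Genes of tendon and cartilage, the tissues in which Comp and Thbs4 are best known, rose in 11 of 14 cases and none fell, with a median of 0.94. Fmod rose 13.3-fold and Cilp, a cartilage matrix protein, 7.34-fold. Acan, the cartilage proteoglycan aggrecan, rose 2.88-fold, to 6.07 ± 0.35 in infarcted against 4.54 ± 0.25 in sham hearts, and Tnmd, a tendon membrane protein, 2.54-fold (SD, n = 6 each, limma adjusted p = 1.13e-05 and 1.10e-06). In sham hearts both had means under 5.58, the 30th percentile of all probeset means. Col12a1 (5.39) and Adamts4 (5.54), named above, did so too. Among transcription factors, named after their values were seen, Sox9 of cartilage rose by 1.45 and Scx of tendon by 0.34 (limma adjusted p = 6.15e-05 and 0.0116). Mkx, also of tendon, differed by 0.07 and was not called (limma adjusted p = 0.799).

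Most of the Atf6 and folding genes of the endoplasmic reticulum were not called. Of 17 genes 1 rose and 3 fell, while 10.1% of all genes were called higher and 10.2% lower. The median change was -0.03, beside -0.039 over all genes. Herpud1, which serves the removal of misfolded proteins, fell by 0.77, to 10.62 ± 0.24 in infarcted against 11.39 ± 0.12 in sham hearts (SD, n = 6 each, limma adjusted p = 0.000125). Hspa5, the chaperone BiP and a known Atf6 target, fell by 0.30 (limma adjusted p = 0.00641), with 11.37 to 11.66 in infarcted and 11.71 to 11.94 in sham hearts. Dnajb9 fell by 0.26 and the disulphide isomerase Pdia4 rose by 0.23 (limma adjusted p = 0.0297 and 0.0278). Omitting single arrays took the call from Dnajb9 in 6 of 12 cases (infarcted replicate 3, 4 or 6, sham replicate 1, 2 or 6) and from Pdia4 in 5 (infarcted replicate 1, 4 or 5, sham replicate 1 or 6), and neither passed without infarcted replicates 4 and 5. Atf6 itself, named after its value was seen, differed by -0.16 (limma adjusted p = 0.182).

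**Figure D5:**
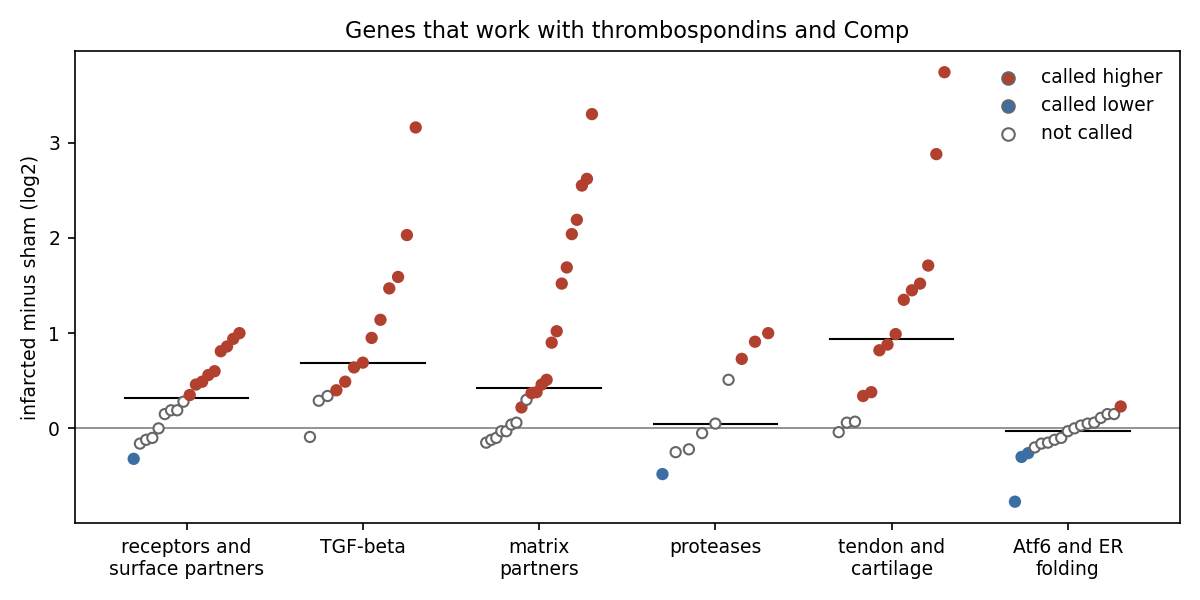
Infarcted minus sham change (vertical axis, log2) of every measured gene in 6 lists, sorted within the list; red points were called higher, blue points lower and open points were not called, and black lines mark medians. The medians are 0.32, 0.69, 0.42, 0.05, 0.94 and -0.03 from left to right, and the list of tendon and cartilage genes holds the largest change (3.74, Fmod).

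Markers of fibroblasts, macrophages and smooth muscle were partly or wholly higher alongside, whereas those of platelets, endothelium and heart muscle were not called higher. All 9 fibroblast markers rose, and their mean signal was 10.69 to 11.07 in infarcted and 9.09 to 9.44 in sham hearts. The largest rises were those of Postn (8.45-fold), Mfap5 (5.18-fold) and the collagen chains Col1a1 (5.87-fold) and Col1a2 (4.11-fold). The others rose less, from 1.29-fold (Dcn) to 2.54-fold (Lum). Of 8 macrophage markers 6 rose, among them Lgals3 by 1.86, Adgre1 by 0.91, Cd68 by 0.77 and Cd14 by 0.67, with a mean of 7.91 to 8.35 in infarcted and 7.26 to 7.57 in sham hearts. Of 7 smooth muscle and pericyte markers 5 rose, with a mean of 9.22 to 9.51 in infarcted and 8.66 to 9.08 in sham hearts. Among them were the contractile genes Cnn1 by 1.05, Tagln by 0.74 and Acta2 by 0.54 and the receptor Pdgfrb by 0.51. Myh11 (-0.14, limma adjusted p = 0.268) and Rgs5 (0.02, limma adjusted p = 0.888) were not called. Platelets store thrombospondin 1, and of 8 platelet and megakaryocyte markers none rose and 1 fell (Gp9 by 0.44, limma adjusted p = 0.0461), with a mean of 6.50 to 6.77 in infarcted and 6.59 to 6.92 in sham hearts. Gp9 missed the threshold in 8 of 12 cases when a single array was omitted (any infarcted replicate but 4, or sham replicate 2, 3 or 4), with adjusted p at most 0.0892. It also missed it with dim probesets left out (adjusted p = 0.0563), without infarcted replicates 4 and 5 (adjusted p = 0.0538) and with the mean over probesets, where it differed by -0.14 (adjusted p = 0.106). Of 7 endothelial and 9 cardiomyocyte markers none passed, and the smallest p belonged to Cdh5 (0.24, limma adjusted p = 0.0760) and Myh6 (-0.18, limma adjusted p = 0.0688). These counts depend on the setting. With the mean over probesets 5 cardiomyocyte markers fell, and 3 did so with centred arrays or an intensity trend. Myh6 then passed (adjusted p = 0.0166, 0.0255 and 0.0111), as it did with several-symbol probesets added (0.0408) and without sham replicate 3 (0.0339). For endothelial markers, 1 rose with the trend, with the mean over probesets or without sham replicate 5, and 2 rose without infarcted replicate 2. Cdh5 passed with the trend (adjusted p = 0.0354), without infarcted replicate 2 (0.0479) and without sham replicate 5 (0.0280). Of 6 atrial markers 2 rose, Nppa by 2.04 and Dkk3 by 1.59, and none fell. Nppa encodes a natriuretic peptide that stressed ventricles also make. Of 6 adipocyte markers none passed, with the smallest p for Adipoq (0.71, limma adjusted p = 0.259). The part of these cells in the rise of the members was not tested.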

How the data were processed

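Total RNA of 6 infarcted and 6 sham hearts was hybridised to one-colour arrays. The deposited values are taken as log2 signals from their range (1.52 to 14.37). Neither the log base nor the summary, background and normalization methods are given in the sources used here, while Affymetrix Power Tools is the tool listed in the submitters' processing notes. Of 241576 probesets, 212097 had 1 gene symbol in the platform annotation, 4475 several and 25004 none. Symbols were updated through a RefSeq table (2742 of 20416), giving 20352 genes. A gene's value was the median over its probesets.

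Infarcted minus sham differences of genes and of probesets were tested in R 4.3.3 by limma 3.58.1 (lmFit and eBayes, two-sided). The Benjamini-Hochberg adjustment ran over all genes or all probesets, and the threshold was 0.05. Unequal change was tested by diffSplice on probesets whose mean reached 5.58, the 30th percentile. Intervals are at 95%. The number of arrays limits the precision. The scripts were tested on simulated data. The members and gene lists were chosen with earlier results of these data known. From each list the text names up to 4 called genes of smallest p and the first in the other direction, or the first gene where none passes, and 3 genes most alike for each member that changed by at least 1, passing over predicted genes. A few genes of the lists are not reported here. Alternatives were the mean over probesets, dim probesets left out, centring, quantile normalization, the replicate number as a block, an intensity trend, probesets with several symbols, and arrays left out. Figures were drawn with matplotlib 3.10.9.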

Additional observations from a re-analysis of the deposited data

Results flagged for a closer look

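Thbs1 in infarcted replicate 1 stood at 10.20, below the other 5 infarcted hearts (10.75 to 10.98), with a gap to its neighbour that is large for a group of 6 by Dixon's ratio (above 0.625). Chance alone marks about 1 in 20 such groups, and 30 groups were examined, 10 of single members and 20 of differences between members. With single arrays left out, this one included, Thbs1 rose by 2.70 to 2.97 on the log2 scale.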

How the results depend on the processing

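The rise of all 5 members kept its direction and its call under every alternative run. With an array left out it lay between 3.61 and 3.85 for Comp, 3.34 and 3.48 for Thbs4, 2.70 and 2.97 for Thbs1, 1.19 and 1.31 for Thbs3, and 1.01 and 1.26 for Thbs2. Centring the arrays on their medians turned the split of all called genes from 2050 higher and 2074 lower into 1748 and 2956, and the members rose by 3.69, 3.38, 2.79, 1.22 and 1.09 in the same order. Same-numbered arrays were not paired (r of their deviations from the group means from -0.051 to 0.101), and 2 of 6 infarcted and 2 of 6 sham arrays correlated best with their own number. With the replicate number as a block, 1946 genes were higher and 1856 lower, and 103 of the 112 probesets were called. Gp9 was then no longer called (limma adjusted p = 0.0657), and Comp rose by 3.74 (limma adjusted p = 4.32e-07). With that block unequal probesets of Thbs1 passed (diffSplice adjusted p = 0.00241), as they did without sham replicate 3 (adjusted p from 0.0298 to 0.422 over the left-out arrays). The exact permutation test gave p = 0.00216 for Thbs1, which was not adjusted and came from a test of the members only. Among pairs, Comp minus Thbs4 ranged from 0.17 to 0.51, Thbs4 minus Thbs1 from 0.47 to 0.67 and Thbs3 minus Thbs2 from -0.02 to 0.20 with an array left out. Correlations that did not pass changed sign without the 2 farthest hearts: Comp with Thbs4 (0.88 infarcted, -0.02 sham), Thbs1 with Thbs2 (0.30, sham), Thbs3 with Thbs2 (-0.90, infarcted) and Thbs4 with Thbs2 (0.92, infarcted). With the mean over probesets, Thbs4 with Thbs2 (-0.10) and with Thbs3 (-0.18) did so in sham hearts, and Comp with Thbs2 in infarcted hearts was 0.98, as without the 2 farthest hearts.

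Of the list counts, endoplasmic reticulum genes that rose numbered 0 with centring, 2 with the mean over probesets, 0 without infarcted replicates 4 and 5, and 0 to 1 with an array left out. Cardiomyocyte markers that fell numbered 3 with centring, 3 with an intensity trend, 5 with the mean, 1 with several-symbol probesets added, and 0 to 1 with an array left out. Endothelial markers that rose numbered 1 with the trend, 1 with the mean, and 0 to 2 with an array left out. Platelet markers that fell numbered 2 with centring, with the trend and with quantile normalization, 0 without infarcted replicates 4 and 5 and 0 to 2 with an array left out, and 1 rose with several-symbol probesets added. Receptors that fell numbered 2 with the mean. The cause of these shifts was not tested.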
